A study of Mus musculus with 12 samples.

Results

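Genes of protein folding in the endoplasmic reticulum (ER) and of the unfolded protein response were examined in hormone-producing tumors of transgenic mice. The set holds 33 genes, taken as a named list of chaperones, disulfide isomerases, stress sensors, transcription factors, degradation genes and translocation genes, and each was read from the probe set with its symbol alone and the highest mean over the tumors. All 33 were measured, among 18193 genes with such a probe set. The tumors were 9 from the pancreas (numbers 1 to 5 and 9 to 12) and 3 from the pituitary (numbers 6, 7 and 8, labelled as brain tumors), all from untreated LSL-MYCN;hGFAP-Cre mice, with 1 Affymetrix mouse array per tumor. In these mice Cre, driven by the human GFAP promoter, removes a stop cassette, so that MYCN and luciferase are expressed in GFAP-positive cells and their descendants. All groups therefore carry the transgene. The tumors were whole pieces of tissue on a mixed strain background, no ages are given here for the profiled mice, and some mice bore tumors at both sites, so tumors of the 2 groups may share a mouse. Values are log2 signals as the authors normalized them, and each difference is pancreatic minus pituitary, so that 1 unit is a factor of 2 in signal.

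Proteins bound for secretion enter the ER through a membrane channel, lose their signal peptide, receive sugar chains and disulfide bonds, and fold with the help of chaperones. When folding falls behind, 3 membrane sensors respond: IRE1 alpha (Ern1), which splices the mRNA of the transcription factor XBP1, PERK (Eif2ak3), which slows translation and favours translation of ATF4, and ATF6, which is cut to release a transcription factor. Endocrine cells that make peptide hormones keep this machinery at high levels. The arrays measured mRNA, so splicing of Xbp1, cleavage of ATF6 and phosphorylation by PERK are not among the values given here.

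The sequences that ATF6 and XBP1 are known to read lie just upstream of several of these genes, and are shown for the members that hold one. RefSeq promoter sequences (mouse build GRCm38.p6) were matched by symbol for 28 of the 33 genes, and not for Hyou1, Manf, Atf6, Creb3l1 and Sec61a1. The 250 bases before each annotated start were searched on both strands for the ER stress response element (ERSE), which reads CCAAT, then any 9 bases, then CCACG. It was found in 8 of the 28 promoters (28.6%), against 37 of 32851 promoters of all genes (0.113%). Counted by gene symbol, 35 of 27025 held it, of which 27 are not members. The set was listed as genes of ER folding and its stress response, so this contrast is not an independent result. The 39-base windows below run 5′ to 3′ on the strand of the gene, with the fixed letters of the element in capitals. Where the element lies on the opposite strand, the capitals read CGTGG before ATTGG.
Hspa5, chr2:34772015-34772053, plus strand: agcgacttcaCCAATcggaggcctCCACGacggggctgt
Canx, chr11:50325790-50325828, minus strand: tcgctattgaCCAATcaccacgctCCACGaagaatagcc
Hsp90b1, chr10:86705628-86705666, minus strand: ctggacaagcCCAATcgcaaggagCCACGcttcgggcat
Hsp90b1, second element, chr10:86705523-86705561, minus strand: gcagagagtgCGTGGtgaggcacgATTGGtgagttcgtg
Calr, chr8:84847065-84847103, minus strand: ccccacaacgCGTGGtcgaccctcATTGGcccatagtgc
Creld2, chr15:88819510-88819548, plus strand: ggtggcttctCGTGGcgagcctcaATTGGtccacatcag
Pdia6, chr12:17266481-17266519, plus strand: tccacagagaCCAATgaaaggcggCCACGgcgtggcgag
Dnajc3, chr14:118937817-118937855, plus strand: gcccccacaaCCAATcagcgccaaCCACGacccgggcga
Syvn1, chr19:6046522-6046560, plus strand: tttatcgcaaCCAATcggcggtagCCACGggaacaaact

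The elements began 212 to 44 bases before the annotated start, with that of Syvn1 the nearest and the first of Hsp90b1 the farthest. Herpud1 held the shorter form ERSE-II, which reads ATTGG, then any base, then CCACG, and is found in 10 of all promoters (0.0304%). Its 31-base window is shown with those letters in capitals.
Herpud1, chr8:94386367-94386397, plus strand: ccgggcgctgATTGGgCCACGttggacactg
The whole upstream window of Hspa5, chr2:34771840-34772089 on the plus strand, is given because it also held the core TGACGTG of the unfolded protein response element, present in 1.65% of all promoters. Its capitals mark that core, which began 157 bases before the start, and the ERSE, which began 65 bases before it.
Hspa5: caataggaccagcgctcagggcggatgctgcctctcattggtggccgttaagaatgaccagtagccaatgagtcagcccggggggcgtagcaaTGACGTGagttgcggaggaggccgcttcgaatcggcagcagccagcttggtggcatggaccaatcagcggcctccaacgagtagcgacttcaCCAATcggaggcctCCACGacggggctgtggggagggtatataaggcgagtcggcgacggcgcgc

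A match to ATF4 sites, TGATG, any base, then AA, was found in Herpud1 alone of the 28, against 3.45% of all promoters. These are matches of letters. Binding was not measured.

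The hormone genes Gcg and Gh separated the groups, and further markers showed other tissue in several arrays. The glucagon gene Gcg had 8.85 to 14.41 in the pancreatic tumors, against 5.34 to 6.38 in the pituitary tumors, and the growth hormone gene Gh had 5.64 to 6.27, against 14.65 to 14.87. Not every such marker did so. Irx2, the other measured gene of glucagon cells, overlapped (4.44 to 8.28 against 4.8 to 5.56). So did Lhb of the anterior pituitary genes (5.02 to 6.15 against 5.39 to 6.45). The mean of 5 hepatocyte genes reached 14.39 in pancreatic tumor 2, which also had the lowest Gcg (8.85) and Syp (5.16). It was 11.66 in pancreatic tumor 3 and 11.97 in tumor 4, while the 6 remaining pancreatic tumors had 5.93 to 8.69 and the pituitary ones 5.34 to 6.06. Tumors 3 and 4 also led for 8 acinar genes, with means of 10.98 and 10.14, where the remaining pancreatic tumors had 5.69 to 8.64 and the pituitary ones 5.00 to 5.28. The mean of 5 astrocyte genes was 5.24 to 7.02 in the pancreatic tumors, against 11.14, 7.44 and 10.64 in pituitary tumors 6, 7 and 8, and that of 4 neuron genes was 4.58 to 6.19, against 9.44, 5.86 and 9.56. The array's own actin control, read at the 3′ and the 5′ end of the mRNA, differed between its ends by 3.48 log2 units in pancreatic tumor 5, by 0.57 to 0.87 in tumors 10, 11 and 12, by 1.54 to 2.08 in the remaining 5 of the pancreas and by 1.51 to 2.20 in the pituitary ones. In such tissue pieces, fewer cells of a type and less mRNA per cell cannot be told apart.

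The set lay above the array median at both sites, and in the reported fit no member passed as different between them. All 33 genes, each read from its brightest probe set, lay above the median signal of the array in all 12 tumors. Creb3l1 did so only narrowly in pancreatic tumors 2 and 3, with 5.51 and 5.62 against array medians of 5.5 and 5.56. A signal above the median does not by itself show expression. By mean signal, 12218 of all 18193 genes read in that way lay above the median probe set. The share of all genes above it in every tumor is not given here. Of the 33, 0 passed an adjusted p of 0.05 as higher in the pancreatic tumors and 0 as lower (limma), where 1.63% and 4.29% of all 18193 genes did. At an unadjusted p under 0.05, 4 were higher (Pdia6, Edem1, P4hb and Sec61a1) and 0 lower, where 9.53% and 14% of all genes were. The median difference over the set was 0.08, against 0.04 over all genes, and 21 of the 33 differences were positive, against 53.1% of all genes. No member had all 9 pancreatic tumors above or all 9 below the 3 pituitary tumors, which 4.21% and 5.21% of all genes had. The intervals show what the 12 arrays leave possible: the narrowest, that of Ssr3, ran from -0.45 to 0.23, while the widest, that of Creb3l1, ran from -2.04 to 1.32 and so held a 2-fold change in either direction. With array weights, which gave pancreatic tumors 2 and 5 the lowest weights (0.37 and 0.31), 5 members were higher in the pancreatic tumors at an adjusted p under 0.05, namely the 4 above and Ern1, where that fit called 5.28% of all genes higher.

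**Figure D1:**
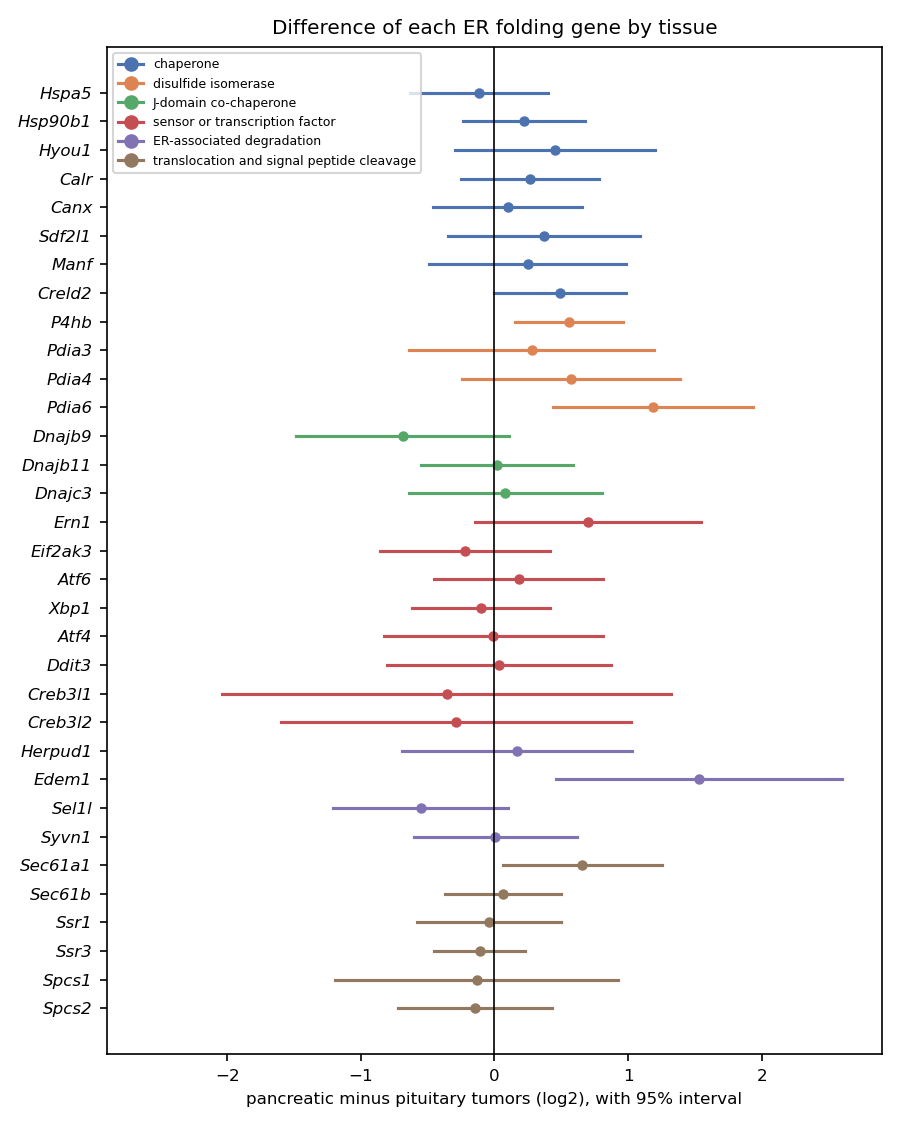
Difference of each of the 33 genes, pancreatic minus pituitary tumors in log2 units (points), with its 95% interval (lines, limma) and coloured by role. The intervals of Pdia6, P4hb, Edem1 and Sec61a1 lie above 0, and 0 of the 33 passed after adjustment over all probe sets.

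The 8 chaperones had differences of -0.12 to 0.49. Hspa5 encodes BiP, the main Hsp70 chaperone of the ER, which also holds the sensors inactive. It had a lowest signal of 12.31, a median of 13.26 and a highest of 13.70 in the pancreatic tumors, against 13.31, 13.53 and 13.10 in pituitary tumors 6, 7 and 8. The groups overlapped throughout, and only pancreatic tumor 5 lay below all the others. The difference was -0.12 ± 0.24 (SE, 95% interval -0.63 to 0.40, adjusted p = 0.822). Hsp90b1, the ER form of Hsp90, ranged from 12.23 to 13.17 with a median of 12.63 in the pancreatic tumors, against 12.35, 12.70 and 12.03 in the pituitary tumors, a difference of 0.22 ± 0.21 (adjusted p = 0.594). Calr and Canx encode calreticulin and calnexin, the lectin chaperones that hold glycoproteins while they fold. Calr ranged from 12.18 to 13.49 in the pancreatic tumors and had 12.43, 13.03 and 12.69 in the pituitary tumors, and Canx had means of 12.33 ± 0.44 over the 9 pancreatic tumors and 12.23 ± 0.12 over the 3 pituitary ones (SD).

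Creld2, an ER stress-inducible protein, came nearest to a difference among the chaperones and cofactors. Its lowest, median and highest signals were 9.45, 9.89 and 10.39 in the pancreatic tumors, against 9.35, 9.78 and 9.11 in the pituitary tumors. Tumors 6 and 8 lay below every pancreatic tumor and tumor 7 within them. The difference was 0.49 ± 0.23 (SE), with an unadjusted p of 0.0507 and an adjusted p of 0.259. Manf, a secreted factor retained by BiP, and Sdf2l1, a partner of BiP and its co-chaperones, had differences of 0.25 ± 0.34 and 0.37 ± 0.33, with pancreatic tumor 9 the highest (12.54 for Manf and 11.26 for Sdf2l1) and pituitary tumor 8 the lowest of all 12 (10.83 and 9.25). Hyou1, a nucleotide exchange factor of BiP, was highest in pancreatic tumors 10, 11 and 12 (11.65 to 11.71), with 10.20 to 11.33 in the remaining 6, against 10.42, 11.10 and 10.33 in the pituitary tumors.

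All 4 disulfide isomerases had a positive difference, and none passed after adjustment over all probe sets. These enzymes form and reshuffle disulfide bonds in new proteins. Pdia6 had a lowest signal of 10.52, a median of 11.73 and a highest of 12.38 in the pancreatic tumors, against 10.42, 11.05 and 10.00 in pituitary tumors 6, 7 and 8. Of the 9 pancreatic tumors, 8 lay above all pituitary tumors, and the remaining tumor 5 lay between pituitary tumors 6 and 7. The difference was 1.19 ± 0.34 (SE, 95% interval 0.44 to 1.94), or 2.28-fold, with an adjusted p of 0.0741. Without pancreatic tumor 5, the array with the widest gap between the ends of actin, Pdia6 passed the threshold (difference 1.33, adjusted p = 0.0174), and over all 23 alternatives its difference ran from 0.63 to 1.47. A second probe set of Pdia6 had a difference of 0.40 (adjusted p = 0.324) at signals of 4.64 to 5.63.

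P4hb, the founding protein disulfide isomerase, was the steadiest isomerase among the pancreatic tumors. Its signals there ran from 13.10 to 13.56 with a median of 13.28, against 12.38, 13.33 and 12.42 in pituitary tumors 6, 7 and 8. Pituitary tumors 6 and 8 lay below all pancreatic tumors, and tumor 7 lay inside their range. The difference was 0.56 ± 0.19 (SE, 95% interval 0.15 to 0.96, adjusted p = 0.118), and without pituitary tumor 7 it was 0.87 (adjusted p = 0.00327). When tumor 7 was the only pituitary tumor kept, the sign turned and the value was -0.06. Pituitary tumors 6 and 8 were also the 2 with the higher astrocyte and neuron genes, and the part of that tissue in the difference was not tested. Pdia3, which works with calnexin and calreticulin, averaged 12.45 ± 0.69 in pancreatic and 12.17 ± 0.64 in pituitary tumors (SD), and Pdia4 averaged 10.44 ± 0.50 and 9.87 ± 0.90, with adjusted p-values of 0.756 and 0.428.

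The 3 J-domain co-chaperones, which deliver clients to BiP and start its ATP cycle, had differences of -0.69 to 0.08. Dnajb9 (ERdj4), known from hamster cells to repress IRE1 through BiP, had the most negative difference of the set. Its lowest, median and highest signals were 10.51, 11.49 and 12.36 in the pancreatic tumors, against 12.21, 12.45 and 11.85 in the pituitary tumors. Pancreatic tumors 1, 4 and 9 reached the pituitary range and the other 6 lay below it. The difference was -0.69 ± 0.37 (SE, adjusted p = 0.331) and stayed negative, from -0.97 to -0.35, over all 23 alternatives. Dnajb11 and Dnajc3 differed by 0.02 ± 0.26 and 0.08 ± 0.33, and Dnajc3 was lowest in pancreatic tumors 11 (10.38) and 12 (10.59).

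The 3 sensors had differences on both sides of 0. Ern1 had a lowest signal of 9.63, a median of 10.65 and a highest of 11.13 in the pancreatic tumors, against 9.44, 10.52 and 9.18 in the pituitary tumors. All pancreatic tumors lay above pituitary tumors 6 and 8, and 4 of them (2, 5, 10 and 11) lay below pituitary tumor 7. The difference was 0.70 ± 0.39 (SE, adjusted p = 0.353), and with array weights it was 1.09 (adjusted p = 0.0409). Eif2ak3 averaged 9.45 ± 0.45 in pancreatic and 9.67 ± 0.50 in pituitary tumors (SD), and Atf6 averaged 8.98 ± 0.44 and 8.79 ± 0.53, with adjusted p-values of 0.715 and 0.768.

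**Figure D2:**
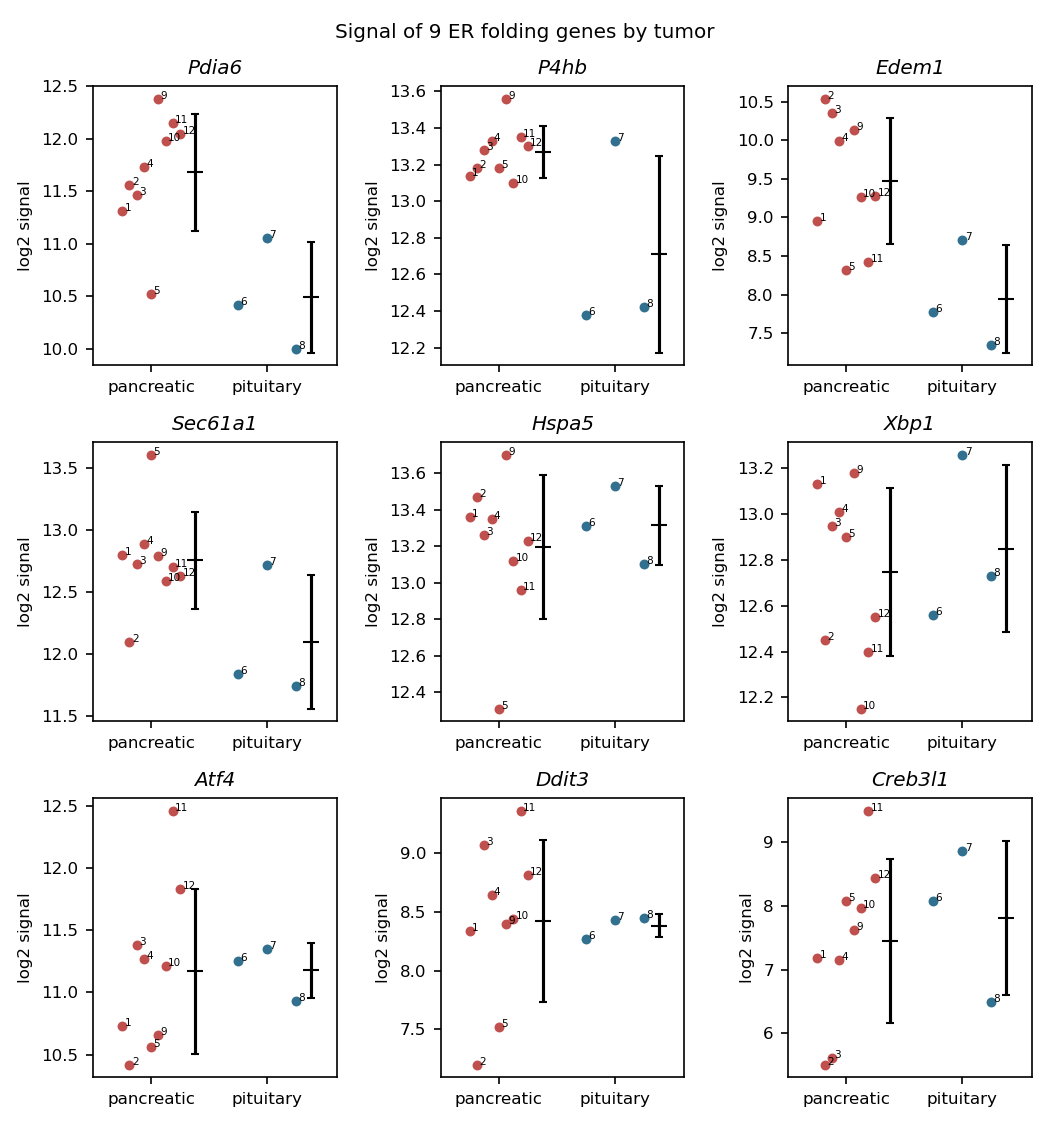
Log2 signal (vertical axes) of 9 of the genes in each pancreatic tumor (red, left) and pituitary tumor (blue, right), numbered as in the labels, with the mean and SD of each group as a bar beside the points. Pituitary tumors 6 and 8 lie low for Pdia6, P4hb, Edem1 and Sec61a1, and pancreatic tumor 11 is the highest for Atf4, Ddit3 and Creb3l1.

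The transcription factors of the response had nearly equal means at the 2 sites. Xbp1 ranged from 12.15 to 13.18 with a median of 12.90 in the pancreatic tumors, against 12.56, 13.26 and 12.73 in the pituitary tumors, a difference of -0.10 ± 0.24 (adjusted p = 0.853). Atf4, whose protein switches on amino acid and stress genes downstream of PERK, had a lowest signal of 10.42, a median of 11.21 and a highest of 12.46 in the pancreatic tumors, against 11.25, 11.35 and 10.93 in the pituitary tumors. Ddit3, which encodes the pro-apoptotic factor CHOP and is a target of ATF4, ranged from 7.20 to 9.36 with a median of 8.44, against 8.27, 8.43 and 8.45. For both genes the pituitary tumors lay close together in the middle of the pancreatic range, pancreatic tumor 11 was the highest and pancreatic tumor 2 the lowest. The differences were -0.01 ± 0.38 for Atf4 and 0.04 ± 0.39 for Ddit3, with intervals of -0.82 to 0.81 and -0.80 to 0.88.

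Creb3l1 and Creb3l2 encode ER membrane factors related to ATF6 that are cut in the same way and are known for secretory pathway genes in bone and cartilage cells. They were the 2 most variable members among the pancreatic tumors, with an SD of 1.28 and 1.03. Creb3l1 had 5.51 and 5.62 in pancreatic tumors 2 and 3 and 9.49 in pancreatic tumor 11, a range of 3.98, and had 8.07, 8.86 and 6.49 in the pituitary tumors. Its signals in pancreatic tumors 2 and 3 lay close to the medians of those arrays (5.5 and 5.56). Creb3l2 had 8.07 in pancreatic tumor 2, the array with the highest hepatocyte genes, and 9.92 to 11.54 in the other 8, against 10.23, 11.54 and 10.34 in the pituitary tumors. Neither difference (-0.36 ± 0.77 and -0.29 ± 0.60) was distinguishable from 0, and the part of liver tissue in the low value was not tested.

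Among the 4 genes of ER-associated degradation, which sends misfolded proteins back to the cytosol for the proteasome, Edem1 had the widest difference of the set. Edem1 is a lectin-like factor that marks misfolded glycoproteins for degradation. Its lowest, median and highest signals were 8.32, 9.28 and 10.54 in the pancreatic tumors, against 7.77, 8.71 and 7.35 in pituitary tumors 6, 7 and 8. Pituitary tumors 6 and 8 lay below all pancreatic tumors, and pancreatic tumors 5 and 11 lay below pituitary tumor 7. The difference was 1.53 ± 0.49 (SE, 95% interval 0.46 to 2.60), or 2.89-fold, with an adjusted p of 0.105. The 3 highest values, 10.54, 10.35 and 10.13, were in pancreatic tumors 2, 3 and 9, of which tumors 2 and 3 also held hepatocyte transcripts. A second probe set of Edem1 had a difference of 0.19 (adjusted p = 0.849), and again its highest value, 10.15, was in pancreatic tumor 2.

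Herpud1, a membrane protein that organizes the degradation complex, ranged from 9.20 in pancreatic tumor 5 to 11.62 in pancreatic tumor 2, with a median of 10.68, against 10.23, 10.75 and 10.19 in the pituitary tumors. Sel1l and Syvn1 encode the adaptor and the ubiquitin ligase (HRD1) of that complex. Sel1l had a lowest signal of 8.82, a median of 9.83 and a highest of 10.69 in the pancreatic tumors, against 10.09, 10.38 and 10.40 in the pituitary tumors, where only pancreatic tumor 5 reached the pituitary range. Its difference was -0.55 ± 0.30 (SE, adjusted p = 0.339). The dimmer probe sets of Sel1l had differences of -0.0007, -0.13, 0.22 and 0.34. Syvn1 averaged 10.02 ± 0.37 and 10.01 ± 0.64 (SD) in pancreatic and pituitary tumors.

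The 6 genes of translocation and signal peptide cleavage had a median difference of -0.08. Sec61a1, the pore of the channel, had a lowest signal of 12.10, a median of 12.73 and a highest of 13.61 in the pancreatic tumors, against 11.84, 12.72 and 11.74 in the pituitary tumors. Pituitary tumors 6 and 8 again lay below all pancreatic tumors, while tumor 7 sat near their median. The difference was 0.66 ± 0.27 (SE, 95% interval 0.07 to 1.25, adjusted p = 0.206). Sec61b, a second channel subunit, and Ssr1 and Ssr3, subunits of the translocon-associated complex, had differences of 0.06, -0.04 and -0.11. The dimmer probe sets of Ssr1 had differences of 1.06, 0.58 and 0.76 (adjusted p = 0.114, 0.355 and 0.225). Ssr3 was the steadiest of all 33 members among the pancreatic tumors, from 11.85 to 12.20 (SD 0.12), and its pituitary signals were 12.08, 12.63 and 11.82. Spcs1 and Spcs2 encode subunits of the signal peptidase. Spcs1 had 10.35 in pancreatic tumor 5 and 11.75 to 13.37 in the other 8, against 12.95, 12.33 and 11.96 in the pituitary tumors, and Spcs2 differed by -0.15 ± 0.26.

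**Figure D3:**
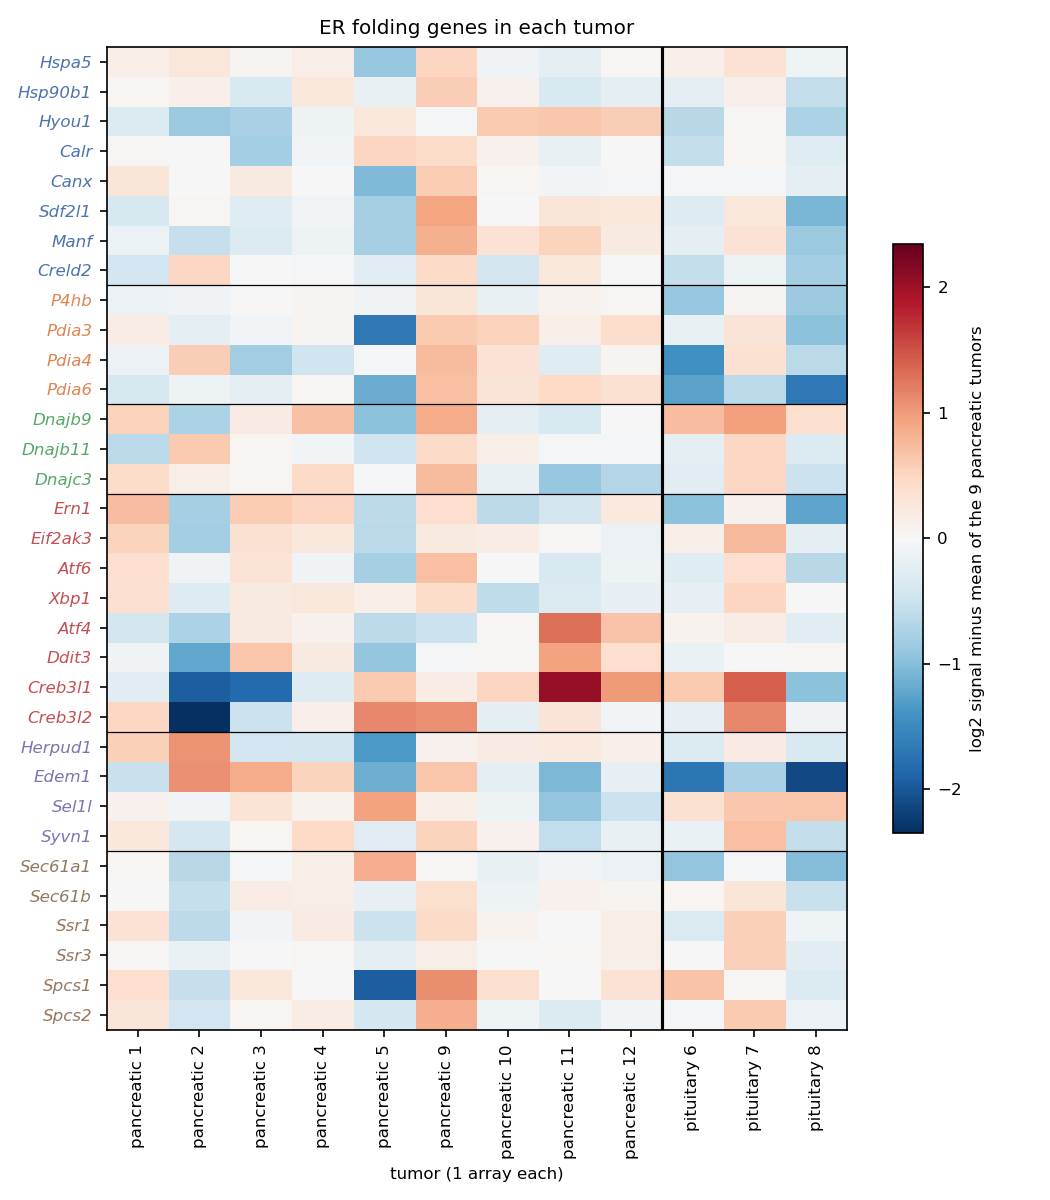
Log2 signal of each gene (rows, grouped and coloured by role) in each tumor (columns, pancreatic left of pituitary), minus the gene's mean over the 9 pancreatic tumors, with red for higher and blue for lower. Pancreatic tumor 9 and pituitary tumor 7 are red, and pancreatic tumor 5 and pituitary tumor 8 are blue, for most genes.

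The members varied from tumor to tumor within a site. Pancreatic tumor 9 was the highest of its group in 18 of the 33 members (54.5%), where it was highest in 10.1% of all genes, and it lay above the pancreatic mean in 30 of them, with a median deviation of 0.46 against 0.05 over all genes. By role, its median deviation ran from 0.31 for the sensors and factors to 0.74 for the J-domain co-chaperones. Pituitary tumor 7 was the highest of its 3 in 29 of the 33 (87.9%, against 45.9% of all genes), and tumor 8 was the lowest in 25 (75.8%, against 44.9%). These shares describe single tumors and were not tested. Pituitary tumor 7 lay above the whole pancreatic range for 6 members and below it for 0, tumor 6 above it for 0 and below it for 7, and tumor 8 above it for 0 and below it for 10. The shares of all genes outside that range were not computed, so whether these counts are unusual is not known. Tumor 7 was the pituitary tumor with the lowest astrocyte and neuron genes and the highest mean of 9 anterior pituitary genes (11.58, against 9.73 and 9.62 in tumors 6 and 8), and the part of these tissues in the order was not tested.

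Pancreatic tumor 5 was the lowest of its group in 12 members (36.4%, against 21.6% of all genes), with a median deviation of -0.48 against -0.11 over all genes. In the probe sets used it was nonetheless the highest for Calr (13.49), Sec61a1 (13.61), Sel1l (10.69) and Creb3l2 (11.54). Other probe sets did not always place it there. For Sel1l, dimmer probe sets had it lowest of its group at 6.72, 6.49 and 4.40, and the dimmest had it within the group at 5.36. For Sec61a1, dimmer probe sets had it lowest (7.73 and 6.70) or highest (9.56) of its group. The actin and Gapdh controls of tumor 5 had the widest gaps between their 3′ and 5′ ends, 3.48 and 2.29, and the part of RNA quality was not tested. Pancreatic tumor 2 was the lowest in 11 members (33.3%, against 19.8%), among them Ern1, Eif2ak3, Atf4, Ddit3, Creb3l1 and Creb3l2, and was the highest for Herpud1, Edem1, Creld2 and Dnajb11. The median SD of the members among the pancreatic tumors was 0.48, against 0.54 for all genes whose mean exceeded the median probe set, and among the pituitary tumors it was 0.46 against 0.31.

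**Figure D4:**
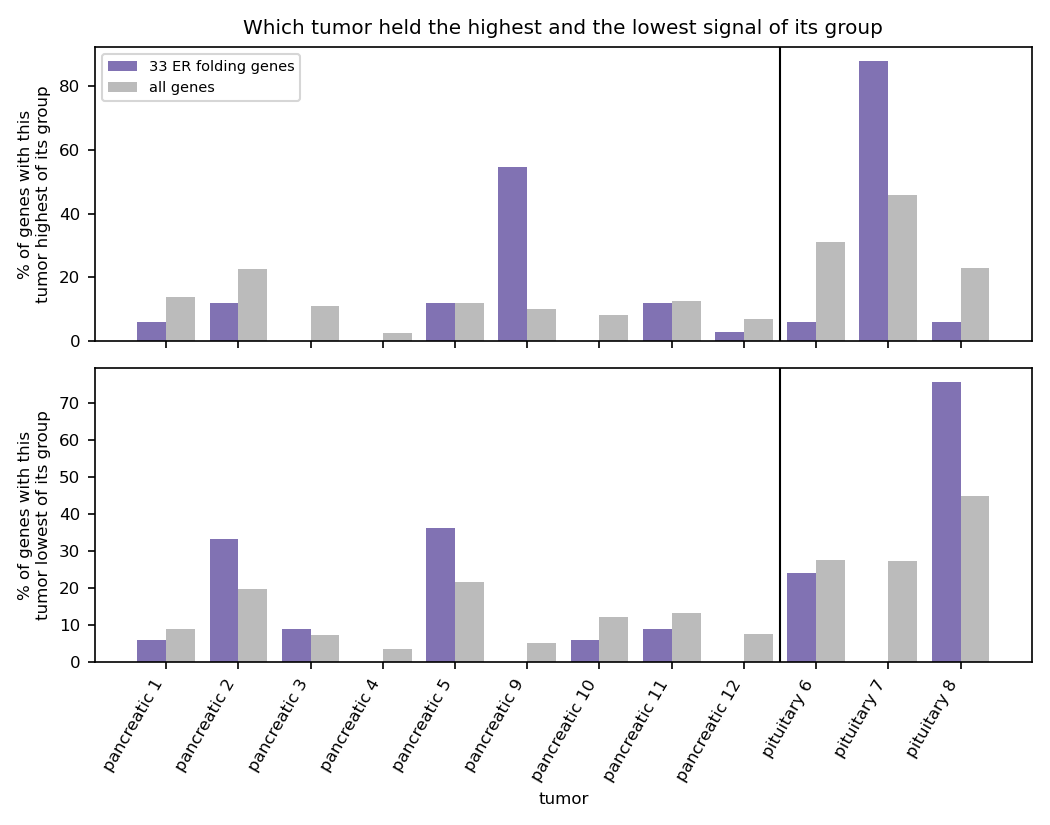
Percent of genes (vertical axes) for which each tumor was the highest (upper panel) or the lowest (lower panel) of its group, for the 33 genes (purple) and all 18193 genes (grey), with pancreatic tumors left of the line and pituitary tumors right of it. Pancreatic tumor 9 was the highest for 54.5% of the set and pituitary tumor 7 for 87.9%.

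The members moved together only in part. Over the 528 pairs of members, the median correlation across the 9 pancreatic tumors was 0.29, against 0.05 between members and other genes, and 0.33 without tumors 2 and 5. Such values share arrays and tissue content, and are given as descriptions. Hspa5 was closest to Canx (r = 0.93, rho = 0.73, n = 9), and without tumors 5 and 9, the 2 farthest from its median, r was 0.32, so that the likeness rested on those tumors. Atf4 was closest to Ddit3 (r = 0.85, rho = 0.97), with r = 0.77 without tumors 2 and 11. Between Atf4 and Hspa5 r was -0.12 and rho was -0.40. Xbp1 was closest to Ern1 (r = 0.74, rho = 0.70) and Dnajc3 (r = 0.72, rho = 0.82), with r = 0.64 and 0.73 without tumors 10 and 11.

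The 8 members with an ERSE had a median difference of 0.16 between the sites, the 20 without one had 0.00, and the 5 without a matched promoter had one of 0.25, and 0 of each passed the threshold. Pancreatic tumor 9 was the highest for 6 of the 8 with the element and 10 of the 20 without it, and pituitary tumor 7 for 7 of the 8 and 17 of the 20.

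Several genes were covered by more than 1 probe set, and these did not always give the same picture. The 33 genes had 83 probe sets, 25 genes had more than 1, and 11 had differences of both signs. Of the 83, 0 passed the adjusted threshold, where 5.39% of all probe sets with 1 symbol did, and 13 had an unadjusted p under 0.05, where 21.8% of all such probe sets did. In pancreatic tumors 10, 11 and 12, 7 probe sets of Hyou1, Sec61a1 and Atf4 lay above all other tumors (8.43% of the 83, against 6.08% of all probe sets with 1 symbol). The dimmest of the 3 probe sets of Hyou1 had 7.87 to 8.03 in those 3 tumors, against 4.20 to 5.01 in the other 9, and the brightest had 11.65 to 11.71 against 10.20 to 11.33. For Sec61a1, 1 probe set had 11.43 to 11.81 against 7.23 to 8.72, while the brightest had 12.59 to 12.70 against 11.74 to 13.61. These were also the tumors with the narrowest gap between the ends of actin, and the mean of 4 plasma and B cell genes was 7.73, 5.80 and 6.37 in them, where the remaining pancreatic tumors had 4.83 to 5.88 and the pituitary ones 4.65 to 5.05. The part of either was not tested.

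**Figure D5:**
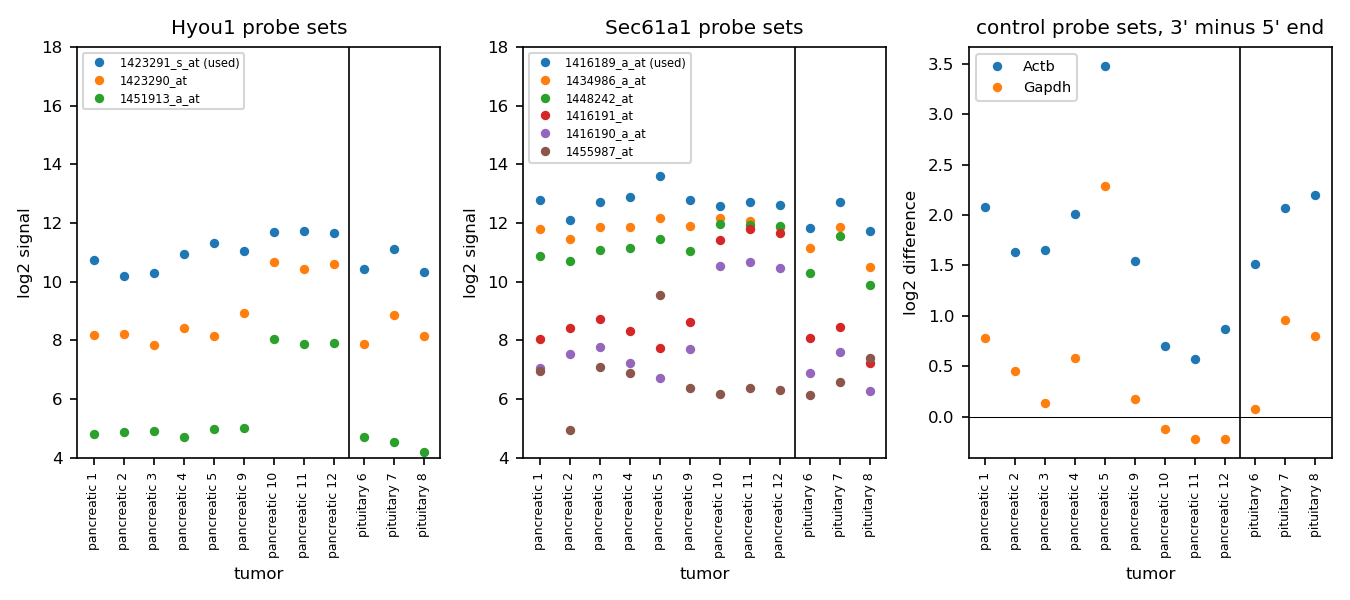
Log2 signal of every probe set of Hyou1 (left) and Sec61a1 (middle) in each tumor, pancreatic left of pituitary, and the log2 difference between the 3′ and 5′ probe sets of actin and Gapdh (right). Pancreatic tumors 10, 11 and 12 stand above all others in the 3 probe sets of Hyou1 and in 3 of the 6 of Sec61a1, not in its dimmest (6.17 to 6.36). For actin, though not for Gapdh, they have the narrowest gaps between ends (0.57 to 0.87).

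The wider secretory pathway was read from 6 lists of other genes, of which 89 of 92 were measured. Of the 89, 0 were higher and 1 was lower in the pancreatic tumors at an adjusted p under 0.05, and 11 were higher and 5 lower at an unadjusted p under 0.05, where the shares of all genes were 1.63% and 4.29% adjusted and 9.53% and 14% unadjusted. The lower gene was Slc7a11, the cystine transporter and a target of ATF4. Its lowest, median and highest signals were 3.43, 3.63 and 3.96 in the pancreatic tumors, against 6.36, 4.03 and 6.05 in pituitary tumors 6, 7 and 8. The 2 pituitary tumors with higher astrocyte genes had the higher signals. The difference was -1.83 ± 0.37 (SE, adjusted p = 0.0156), and the value against pituitary tumor 7 alone was -0.38 (adjusted p = 0.966). The call was also lost with fewer arrays, without pituitary tumor 6 (difference -1.39, adjusted p = 0.109) and without pituitary tumor 8 (-1.54, adjusted p = 0.108). The signals of all 9 pancreatic tumors and of pituitary tumor 7 lay below the array medians (5.45 to 5.69), so the difference rests on dim signals and no fold is given.

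Of 15 genes of oxidative folding, 13 had positive differences, with a median of 0.51 against 0.04 over all genes, and 0 passed. The nearest were Sil1, a nucleotide exchange factor of BiP (0.85 ± 0.23, adjusted p = 0.0613), and Txndc5, a disulfide isomerase (0.67 ± 0.19, adjusted p = 0.0701). The 12 glycosylation genes had a median of 0.45 with 9 positive. The 17 other translocation genes split, with Spcs3, a signal peptidase subunit, at 1.15 ± 0.32 and all pancreatic tumors above the pituitary tumors (adjusted p = 0.0595), and Sec62, which helps post-translational import, at -1.02 ± 0.29 (adjusted p = 0.0665). The 19 genes listed under PERK and ATF4, not all of them targets of ATF4, had a median of -0.39, with 14 of 19 negative. Among the negative ones were the serine synthesis genes Phgdh (-1.36 ± 0.40, adjusted p = 0.0793) and Psat1 (-1.24 ± 0.55, adjusted p = 0.246). Pancreatic tumor 11, which had the highest Atf4 and Ddit3, was the highest of the 9 for 11 of these 19 genes (57.9%), where it was highest for 12.6% of all genes. Among the 11 were Stc2 (10.33, against 6.76 to 9.28 in the other 8), Chac1 (9.42), Trib3 (8.85) and Sesn2 (9.36), while Atf3, Cebpb, Psat1 and 5 others were highest elsewhere. Also among the 11 was Slc7a11, whose pancreatic signals (3.43 to 3.96) lay below the array medians. Over the 9 pancreatic tumors r with Atf4 was 0.92 for Stc2, 0.82 for Chac1, 0.64 for Sesn2, 0.61 for Trib3 and 0.51 for Asns. Without tumors 2 and 11 it was 0.80, 0.56, 0.26, 0.75 and -0.06, so that for Sesn2 and Asns it rested on those tumors. The 15 degradation genes had a median difference of -0.03 and the 11 sensors and regulators one of 0.09.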

How the data were processed

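Total RNA of 9 pancreatic and 3 pituitary tumors was hybridized to Affymetrix mouse arrays, 1 per tumor. The deposited values are log2 signals per probe set, already normalized by the authors. Partek Genomics Suite (no version in the sources used here) is the tool named for normalization, RMA is named as well, and which of these produced the values is not stated. They were used with no further normalization. Probe sets were named through GEO's platform annotation, in which 34945 of 45037 non-control probe sets had 1 symbol, 932 several and 9160 none, and 34741 of the 34945 matched a RefSeq gene. A gene was read from its single-symbol probe set with the highest mean.

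Tumors were grouped by their tissue label and compared over all 45037 probe sets in limma 3.58.1 (lmFit, eBayes; R 4.3.3), with Benjamini-Hochberg adjustment and a threshold of 0.05. The code was tested on simulated data. Tables, promoter searches and figures were made in Python 3.11.15 with pandas 2.3.3, numpy 2.4.6, scipy 1.17.1 and matplotlib 3.10.9. Promoters came from RefSeq for GRCm38.p6, the 250 bases before each start. Protein sequences were not used here. Other settings tried were array weights, centring on array medians, quantile normalization, an unmoderated model (the analysis of variance named in the series' design), a robust trended prior, a filter at the median probe set, the mean of a gene's probe sets, and leaving out tumors. Leaving out pancreatic tumors 2 and 5 together was chosen after seeing the data. Arrays of normal pancreas were not analysed here.

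The 33 genes and the other lists were chosen with earlier results of these data known. Named were all 33 genes, and of each other list the genes past the threshold, up to 4 per direction. Genes of those lists short of the threshold, and the ATF4 targets set beside Atf4 or pancreatic tumor 11, were named after their values were seen. Of 92 listed pathway genes 89 had such a probe set, and 3 were not analysed here. Precision is limited by having 9 and 3 arrays. Nothing in the labels says which tumors came from the same mouse, so p-values measure the spread between these tumors.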

Additional observations from a re-analysis of the deposited data

Results flagged for a closer look

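Among the 33 genes tested, 3 held a value in 1 pancreatic tumor that lay apart from the other 8 by more than a rule for single outlying values allows. The rule is set to flag about 1 of 20 genes by chance when values spread normally. The share of all genes that it flags on these arrays was not computed, so whether the set is unusual is not known. Canx had 11.30 in pancreatic tumor 5, where the next lowest tumor had 12.27. Pdia3 had 10.77 in the same tumor, where the next lowest had 12.23. Creb3l2 had 8.07 in pancreatic tumor 2, where the next lowest had 9.92. Tumor 5 had the widest gap between the ends of its actin control (3.48) and tumor 2 the highest hepatocyte genes (mean 14.39), and the part of either was not tested.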

How the results depend on the processing

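The count of members higher in the pancreatic tumors, 0 in the reported fit, was 5 with array weights and 1 with a gene's probe sets averaged (Pdia6) and without pancreatic tumors 2 and 5 (Pdia6), fits that called 5.28%, 2.22% and 3.76% of all genes higher, against 1.63% as reported. Leaving out 1 tumor at a time gave 0 to 1, with Pdia6 called without pancreatic tumor 5 and P4hb without pituitary tumor 7. Those fits called 2.08% and 1.53% of all genes higher. No member was called lower in any of the 23 alternatives. The median difference of the members, 0.08, ran from -0.07 to 0.35 when 1 tumor was left out, and was -0.30 when pituitary tumor 7 was the only pituitary array, a single array assumed to vary like the others. It was 0.24 with array weights, 0.12 with median centring and 0.13 with quantile normalization, where the median of all genes was 0.05, 0.08 and 0.08 against 0.04 as reported. Of 759 member differences under alternatives, 84 changed sign, in 26 of the 33 members, none of them called in either fit, and 7 members kept their sign throughout. The other pathway genes called higher, 0 as reported, numbered 9 with array weights, 5 without pancreatic tumors 2 and 5, 2 with the mean of all probe sets, 3 with quantile normalization, 1 with median centring and 0 to 3 with 1 tumor left out, where quantile normalization and centring called 2.04% and 1.65% of all genes higher. Those called lower, 1 as reported, numbered 3 with array weights and 2 without pancreatic tumors 2 and 5. These fits called 8.77% and 5.55% of all genes lower, against 4.29% as reported. The number was 0 without pancreatic tumors 2, 3 and 4 and 0 without pancreatic tumors 10, 11 and 12. It was 0 with the filter at the median probe set, which removes Slc7a11, and 0 to 2 with 1 tumor left out. Other causes were not tested. The median SD among the pancreatic tumors, 0.48, ran from 0.38 to 0.53. No paired analysis was possible because the labels do not say which tumors came from the same mouse.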
